A study of Mus musculus with 6 samples.

Results

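Purinergic receptors and ectonucleotidases are the cell-surface proteins through which a cell senses and degrades extracellular nucleotides. ATP and ADP released from injured cells are read by P2X channels, which ATP opens directly, and by P2Y receptors, which couple to G proteins. CD39, encoded by Entpd1, cuts ATP and ADP to AMP. CD73, encoded by Nt5e, then turns AMP into adenosine, a ligand of the receptor encoded by Adora2a. Resting microglia, the immune cells that reside in the brain, are known for their high P2RY12, the ADP receptor through which their processes move toward an injury.

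The genes described here were 10 named members of this system, of 23462 named genes on the array. They were P2Y receptors (P2ry12, P2ry13, P2ry6 and P2ry14), P2X channels (P2rx1, P2rx4 and P2rx7), ectonucleotidases (Entpd1 and Nt5e) and an adenosine receptor (Adora2a). Each probe that was not a control and whose accession matched one of these genes was taken, which gave 16 probes. A single probe stood for 5 of the genes and several probes for the other 5. All 16 probes were well above background on all 6 arrays.

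Microglia had been isolated from the brains of mice with acute ischemic stroke (AIS), made by transient occlusion of the middle cerebral artery, to learn how PGC-1α, a coactivator of transcription known for raising mitochondrial biogenesis, changes their gene expression. The control group held 3 samples of PGC-1α f/f mice, which bore an introduced PGC-1α allele with loxP sites and an eGFP gene. The mPGC-1α group held 3 samples of littermates that carried in addition a tamoxifen-inducible Cre placed at Cx3cr1, a gene also active in monocytes and macrophages outside the brain. Both groups had received tamoxifen and then stroke surgery. All samples were labelled male and 10 weeks old, on a C57BL/6 background, and the time after AIS was not given in the sources used here. The cells had been pulled out with an antibody against P2RY12 itself, so in both groups the selection used the protein product of a member gene. Whether a sample was 1 mouse or a pool was not given in the labels, so p-values measure only the spread between these samples.

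Levels are log2 values of the processed signal relative to the array's own 75th percentile, so that 0 is the brightness of the probe at that percentile. Differences are the mPGC-1α mean minus the control mean on this scale. The microglia markers were bright on all arrays, with a summed signal of 288 to 350 times the 75th percentile in the control samples and 329 to 360 times in the mPGC-1α samples. Between 71.0% and 86.5% of spots were well above background on an array, and 549 to 4931 spots were marked as outliers by the scanner software, most of them on control array 3 and mPGC-1α array 3, which shared the second of 2 slides. These marks fell on bright spots, up to 48.3% of the brightest 10% on mPGC-1α array 3. Control array 2 stood apart in its sex-linked genes, with Xist at -4.83 against -0.57 to -0.11 on the other 5 arrays and the Y-linked Ddx3y well above background on that array only. All samples were labelled male, so the labels were not borne out on 5 arrays, and results are also given without control array 2. Ppargc1a, the gene for PGC-1α, was at -0.71 ± 0.29 in control and -1.02 ± 0.14 in mPGC-1α samples (SD, n = 3 each; limma adjusted p = 0.798), so its probe did not separate the groups in the direction of the labels, and whether this probe reads the introduced allele is not known. Directions below are those of the libraries as labelled.

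Among the RefSeq promoter sequences (build GRCm38.p6, 250 bases before to 50 bases after a transcript start), 8 of the 10 genes had an entry, with 13 promoters in all. P2ry6 and Adora2a had none. The 4 promoters below are those of the receptor used to isolate the cells, of its neighbour P2ry13, and of P2rx4 and Nt5e, the members whose groups did not overlap. They were searched on both strands for GAGGAA, a core shared by binding sites of PU.1, the factor that defines the macrophage lineage, and for AAGGTCA, a core shared by sites of the estrogen-related receptors, partners of PGC-1α. Capitals mark a match.
P2ry12, chr3:59262936-59263235, minus strand: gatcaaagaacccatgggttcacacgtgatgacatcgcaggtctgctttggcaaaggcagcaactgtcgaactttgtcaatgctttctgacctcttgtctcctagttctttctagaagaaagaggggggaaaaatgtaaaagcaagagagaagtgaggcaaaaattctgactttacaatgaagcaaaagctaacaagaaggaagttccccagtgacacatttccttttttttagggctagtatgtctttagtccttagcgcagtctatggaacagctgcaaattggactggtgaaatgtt
P2ry13, chr3:59210833-59211132, minus strand: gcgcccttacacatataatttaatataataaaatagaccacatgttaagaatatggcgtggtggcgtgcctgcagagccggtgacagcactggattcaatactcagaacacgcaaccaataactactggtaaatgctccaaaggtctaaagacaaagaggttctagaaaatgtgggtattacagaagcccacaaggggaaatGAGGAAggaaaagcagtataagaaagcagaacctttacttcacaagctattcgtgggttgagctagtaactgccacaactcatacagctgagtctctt
P2rx4, chr5:122707294-122707593, plus strand: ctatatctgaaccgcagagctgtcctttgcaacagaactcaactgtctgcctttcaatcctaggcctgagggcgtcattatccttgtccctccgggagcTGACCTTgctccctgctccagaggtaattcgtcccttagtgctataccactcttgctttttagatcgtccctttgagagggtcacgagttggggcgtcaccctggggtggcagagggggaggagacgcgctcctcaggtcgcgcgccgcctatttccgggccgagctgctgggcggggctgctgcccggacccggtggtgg
Nt5e, chr9:88327359-88327658, plus strand: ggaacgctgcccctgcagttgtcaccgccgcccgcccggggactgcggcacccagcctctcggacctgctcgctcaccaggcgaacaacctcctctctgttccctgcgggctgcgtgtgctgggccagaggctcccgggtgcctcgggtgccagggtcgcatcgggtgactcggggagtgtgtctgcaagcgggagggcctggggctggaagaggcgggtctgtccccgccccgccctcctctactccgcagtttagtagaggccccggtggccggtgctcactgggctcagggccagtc

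P2ry13 held GAGGAA 48 bases before its start, and P2rx4 held AAGGTCA, on the opposite strand, 151 bases before its start. In these windows P2ry12 and Nt5e held neither string of letters. Over all members, 8 of 13 promoters of 4 genes held GAGGAA, which 28.3% of the 32851 promoters of the table held, and 2 of 13 promoters, of P2ry14 and P2rx4, held AAGGTCA, which 4.72% of all promoters held. Promoters of 1 gene overlap in part and are not independent. The matches are a description of the letters, not of binding.

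No member probe differed between mPGC-1α and control samples past the threshold of 0.05 on the limma adjusted p. Of the 15 member probes in the fit, 0 were called, and of all 40745 probes tested 0 were called (0%). At an unadjusted p below 0.05 the fit held 1 member probe, for Entpd1, and 2921 of all probes (7.17%, with 4.52% lower in mPGC-1α). The estimated differences ran from -0.64 to 0.35, with 7 probes higher and 8 lower in mPGC-1α samples. The median was -0.01 over the 15 member probes, beside 0.08 over all tested probes, and 0.13 over the brightest probes of 9 member genes, beside 0.11 over the brightest probes of 18222 genes. The 95% confidence intervals of 12 member probes lay wholly within 1 log2 unit, a 2-fold change, in either direction, and those of the other 4 extended beyond it. With the array number as a block, 0 member probes and 0.00245% of all probes were called. Without control array 2, 1 of 14 member probes in the fit was called, beside 5.35% of all probes, and 5 had an unadjusted p below 0.05, beside 22% of all probes.

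**Figure D1:**
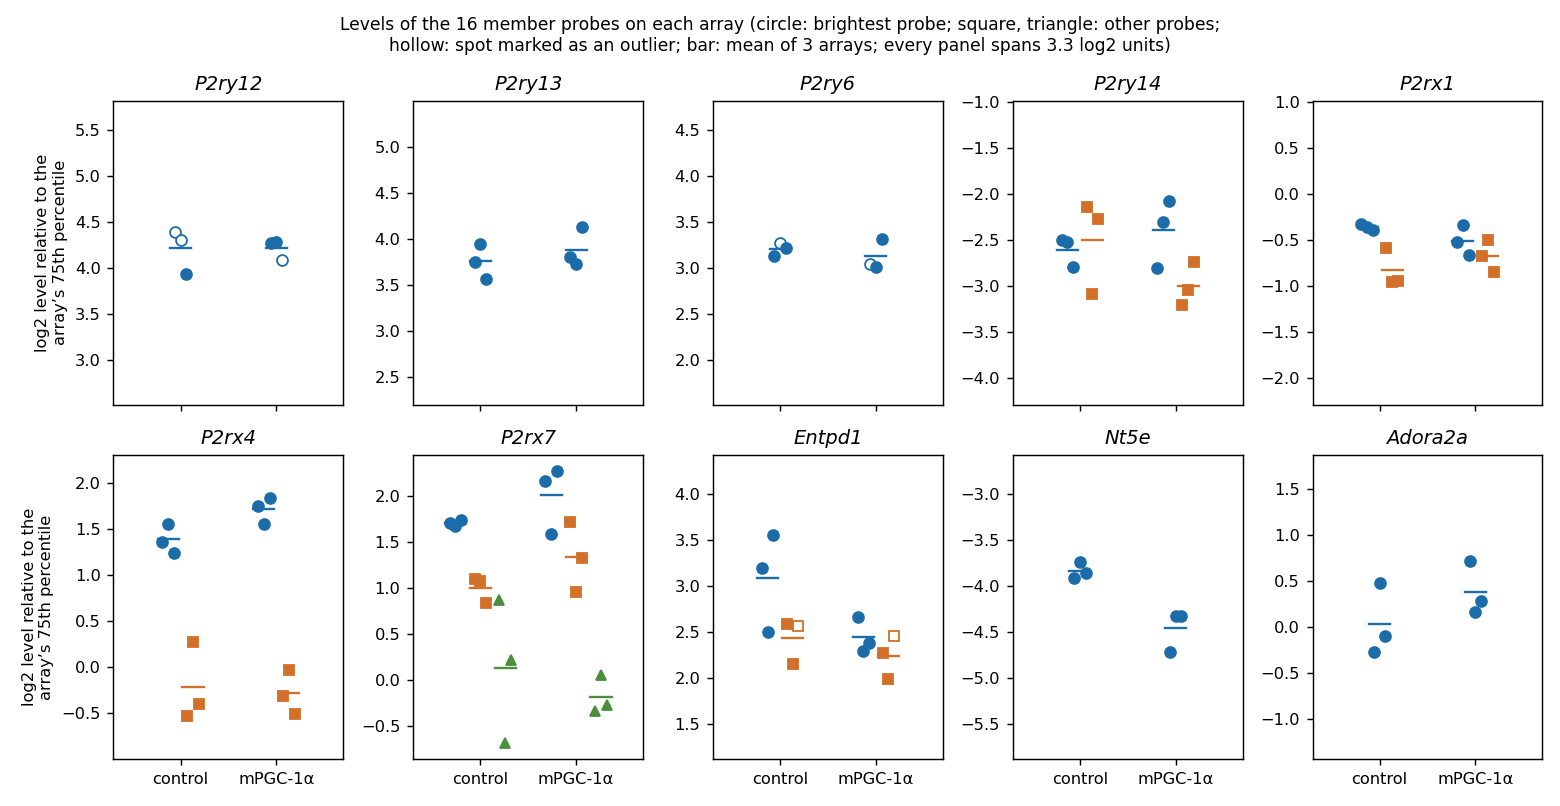
Level of each member probe on each array, as log2 of the signal relative to the 75th percentile of the array (vertical axis), for control and mPGC-1α samples. Circles are the brightest probe of a gene, squares and triangles its other probes, hollow symbols spots marked as outliers, and bars the mean of 3 arrays. Nt5e is the 1 gene with clearly separate groups, at -3.91 to -3.74 in control and -4.71 to -4.32 in mPGC-1α samples.

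**Figure D2:**
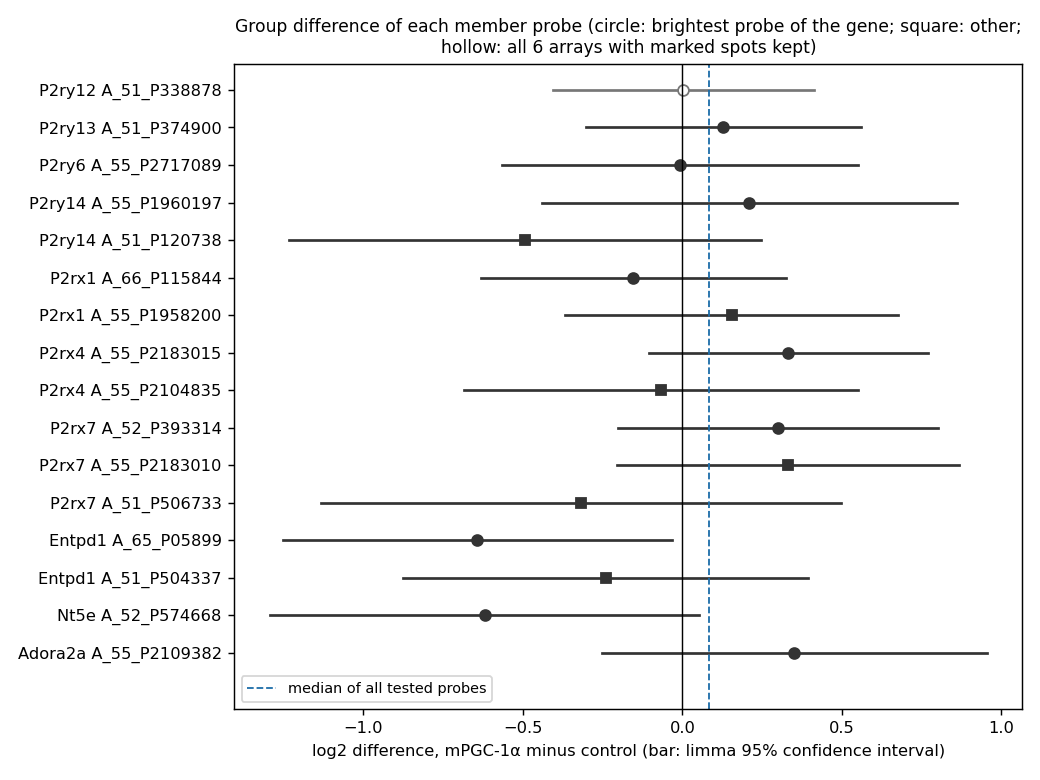
Difference between mPGC-1α and control samples for each member probe on the log2 scale (horizontal axis), with limma 95% confidence intervals from 3 arrays per group, or 2 for P2ry6 and the second Entpd1 probe. The dashed line is the median of all tested probes (0.08), and the interval of the brightest Entpd1 probe is the only one that leaves out 0.

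P2ry12, the ADP receptor against which the isolating antibody was directed, had the same mean level in both groups. Its probe read 4.40, 4.31 and 3.94 on the 3 control arrays and 4.28, 4.29 and 4.09 on the 3 mPGC-1α arrays. The groups overlapped, and the lowest and the highest array were both control arrays, 1.37-fold apart. The difference was 0.00 with a SE of 0.18 and a 95% confidence interval of -0.41 to 0.41 (limma adjusted p = 0.999, exact permutation p = 1). Spots of this probe were marked as outliers on control arrays 1 and 2 and on mPGC-1α array 3, so the probe could not be fitted under the main rule, and these values keep the marked spots. On the 3 unmarked arrays alone, 1 control and 2 mPGC-1α, the difference was 0.34, with no test. Within slide 1 the difference was -0.07 and within slide 2 it was 0.14, and after quantile normalization of all arrays it was -0.16.

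The 5 genes whose level followed P2ry12 most closely across the 6 arrays were Htr2b, a serotonin receptor (Pearson r = 0.986), Hic1 (0.980), Ano7 (0.977), Gm31987 (0.976) and Tns3 (0.972), among 16183 genes compared. With 6 arrays that also share slides and scaling, 63 genes had an r above 0.9, and the ranking is a description only.

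P2ry13 is a second ADP receptor that lies beside P2ry12 in the gene order of chromosome 3. It read 3.75, 3.95 and 3.57 in control and 3.80, 3.72 and 4.13 in mPGC-1α samples. The mPGC-1α value on the second slide was the highest of the 6 and the groups overlapped. The difference was 0.13 with a SE of 0.19 (limma adjusted p = 0.90), it was -0.09 within slide 1 and 0.56 within slide 2, and its sign turned to -0.02 after quantile normalization. P2ry6, the UDP receptor linked to microglial phagocytosis, read 3.13, 3.27 and 3.21 in control and 3.04, 3.01 and 3.31 in mPGC-1α samples. The spots of control array 2 and mPGC-1α array 1 were marked and dropped from the fit, which left 2 arrays per group with a difference of -0.01 and a SE of 0.24 (limma adjusted p = 0.997). The mPGC-1α values lay on both sides of the control values. The 95% confidence intervals were -0.30 to 0.56 for P2ry13 and -0.57 to 0.55 for P2ry6.

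P2ry14, the receptor for UDP-glucose, had 2 probes with opposite signs. The brighter probe read -2.50, -2.52 and -2.79 in control and -2.80, -2.30 and -2.07 in mPGC-1α samples, a difference of 0.21 with a SE of 0.29 (limma adjusted p = 0.892). The other probe read -2.14, -3.09 and -2.27 in control and -3.20, -3.04 and -2.73 in mPGC-1α samples, a difference of -0.49 with a SE of 0.33 (limma adjusted p = 0.769). Both overlapped between the groups. The 2 highest values of the second probe were those of control arrays 1 and 3. The probes thus gave no common direction for the gene. P2ry12, P2ry13 and P2ry14 all lie within Med12l in the gene table, and which of these genes a probe overlaps was not known, since the files give no probe sequence.

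P2rx1, a fast ATP-gated channel best known from platelets, also had 2 probes of opposite sign. The brighter one read -0.32, -0.35 and -0.39 in control and -0.52, -0.34 and -0.66 in mPGC-1α samples, and the other -0.58, -0.95 and -0.94 in control and -0.67, -0.50 and -0.84 in mPGC-1α samples. The differences were -0.15 and 0.15, with SEs of 0.21 and 0.23 (limma adjusted p = 0.893 and 0.901), and the groups overlapped on both. The platelet markers, with which P2rx1 and P2ry12 RNA could also arrive, had a summed signal of 4.10 to 5.02 in control and 4.54 to 5.54 in mPGC-1α samples, with 5 of 9 tested markers higher. Of these 9, Gp1ba (difference -0.61) and Gp9 (0.33, with overlapping groups) differed most. Gp1ba and Itga2b (-0.27) were lower without overlap between the groups, and none was higher without overlap. None of the 10 was below background on all arrays. The part of platelets in either gene was not tested.

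P2rx4, the ATP-gated channel that microglia raise after nerve and brain injury, was 1 of 2 member probes without overlap between the groups. Its brighter probe read 1.35, 1.56 and 1.24 in control and 1.75, 1.56 and 1.84 in mPGC-1α samples. The separation was bare, since control array 2 and mPGC-1α array 2 were equal at 1.56 to 2 decimals. The difference was 0.33 with a SE of 0.19 and a 95% confidence interval of -0.11 to 0.77 (limma adjusted p = 0.75). The exact permutation p was 0.1, the smallest that 3 against 3 arrays allow. Relative to P2ry12 on the same array the groups overlapped, and without control array 2 the difference was 0.42 (limma adjusted p = 0.220). The second P2rx4 probe did not share the direction and read -0.54, 0.27 and -0.40 in control and -0.31, -0.04 and -0.52 in mPGC-1α samples (difference -0.07, SE 0.27, limma adjusted p = 0.966). In all, 2 of 13 member probes measured on 6 arrays had groups without overlap, beside 11.5% of the 36995 such probes of the whole table (6.8% higher and 4.66% lower in mPGC-1α). Camkk2, which overlaps P2rx4 in the gene table, read 0.62, 0.95 and 0.46 in control and 1.52, 1.32 and 1.58 in mPGC-1α samples on its brightest probe (difference 0.74, SE 0.25, limma adjusted p = 0.684), and its 2 other probes differed by -0.16 and -0.05.

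P2rx7, the channel that opens at high ATP and leads to NLRP3 inflammasome activation, had 3 probes, annotated to different transcripts of the gene. The brightest read 1.70, 1.67 and 1.74 in control and 2.16, 1.58 and 2.27 in mPGC-1α samples, with a difference of 0.30 and a SE of 0.22 (limma adjusted p = 0.787). The next read 1.10, 1.07 and 0.84 in control and 1.72, 0.95 and 1.33 in mPGC-1α samples, with a difference of 0.33 and a SE of 0.24 (limma adjusted p = 0.782). On both, mPGC-1α arrays 1 and 3 lay above all control arrays and mPGC-1α array 2 did not. The dimmest probe went the other way, at 0.87, -0.68 and 0.22 in control and -0.34, 0.05 and -0.27 in mPGC-1α samples (difference -0.32, SE 0.36, limma adjusted p = 0.862). Its highest values were those of control arrays 1 and 3, and its lowest was control array 2. P2rx7 and P2rx4 are neighbours on chromosome 5 and their brightest probes were both higher by about the same amount, neither past the threshold.

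Entpd1, which encodes CD39 and takes the first step from ATP toward adenosine, had the largest estimated difference of the members. Its brighter probe read 3.20, 2.51 and 3.56 in control and 2.66, 2.29 and 2.38 in mPGC-1α samples. The groups overlapped through control array 2, which lay below mPGC-1α array 1. The mean was 3.09 ± 0.53 in control and 2.44 ± 0.19 in mPGC-1α samples (SD, n = 3 each). The difference of -0.64, a 1.56-fold lower signal, had a SE of 0.27 and a 95% confidence interval of -1.25 to -0.03, with an unadjusted limma p of 0.041 and an adjusted p of 0.688, and the exact permutation p was 0.2. All 3 pairs of arrays with the same number had the lower value in mPGC-1α, by -0.53, -0.21 and -1.18. Without control array 2 the difference was -0.93 and passed the threshold (limma adjusted p = 0.035), the only member to do so, in a fit where 4.99% of all probes were called lower. With the array number as a block the adjusted p was 0.242. The second Entpd1 probe read 2.59, 2.16 and 2.57 in control and 2.28, 1.99 and 2.46 in mPGC-1α samples and differed by -0.31, -0.17 and -0.11 between arrays of the same number. The spots of array 3 of each group were marked, and on the 2 arrays left in each group its difference was -0.24 with a SE of 0.27 (limma adjusted p = 0.862).

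The brighter Entpd1 probe, the second P2ry14 probe and the dimmest P2rx7 probe had one pattern in common, with control arrays 1 and 3 the 2 highest of 6. This held for 3 of 13 member probes (23.1%), beside 13.8% of all tested probes measured on 6 arrays. It was found in 30.1% of 6752 dimmer probes of genes with several probes, and in 9.96% of 16191 brightest or only probes. Across 5340 genes the gap between the dimmer and the brightest probe, centred on the gene, had a median of 0.25 on control array 1, -0.08 on control array 2, 0.11 on control array 3, and -0.16 to -0.08 on the mPGC-1α arrays. The dimmer probes of the whole table were thus relatively bright on the same 2 control arrays. Among the members, this gap was 0.61 and 0.76 on control arrays 1 and 3 for P2ry14, the 2 highest of its 6 arrays. For P2rx7 it was 0.57 and 0.07, and the 0.20 on mPGC-1α array 2 was above the value on control array 3. P2rx7 thus followed the shift on control array 1 only. P2rx4 did not follow it, at -0.09 and 0.16 with its highest gap of 0.52 on control array 2. P2rx1 did not either, at 0.05 and -0.23 with 0.14 to 0.17 on the mPGC-1α arrays. The Entpd1 probe was the brighter of its gene and the only one of the gene measured on 6 arrays, so it had no such gap. The part of this shift in the Entpd1, P2ry14 and P2rx7 values was not tested.

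**Figure D3:**
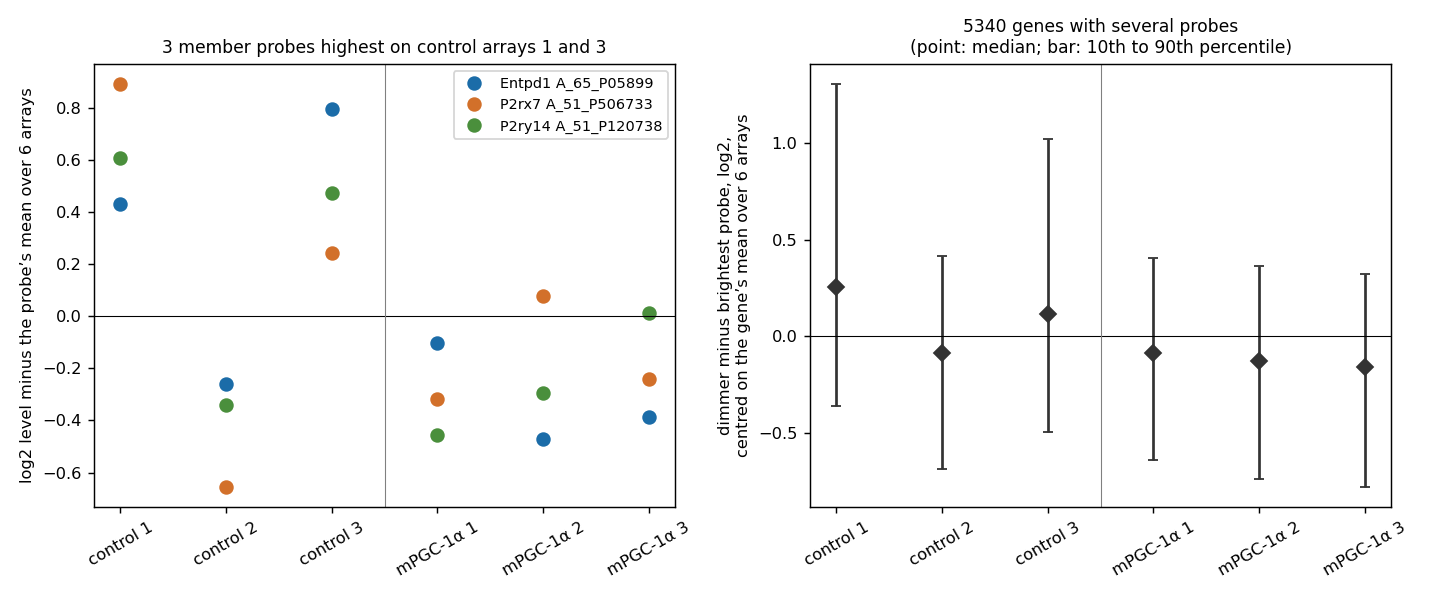
Left, levels on the 6 arrays of 3 member probes (for Entpd1 the brighter of its gene), as log2 difference from each probe's own mean. Right, for 5340 genes with several probes, the median and the 10th to 90th percentile of the gap between dimmer and brightest probe on the log2 scale, which is highest on control arrays 1 and 3 (0.25 and 0.11), the arrays on which the 3 probes at left are highest.

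Nt5e, which encodes CD73 and makes adenosine from AMP, was lower in each mPGC-1α sample than in any control sample. It was dim but above background on all arrays, at -3.91, -3.74 and -3.86 in control and -4.71, -4.33 and -4.32 in mPGC-1α samples. The mean was -3.83 ± 0.09 in control and -4.45 ± 0.22 in mPGC-1α samples (SD, n = 3 each), and the difference of -0.62, 1.54-fold, with a SE of 0.30 and a 95% confidence interval of -1.29 to 0.05, did not pass the test (limma adjusted p = 0.712). The exact permutation p was 0.1, the smallest the design allows. The same-number pairs differed by -0.81, -0.59 and -0.47, and relative to P2ry12 on the same array the groups also stayed apart. The value was negative in all 21 alternative settings and leave-out runs, between -0.77 and -0.29. Many of these could not differ in sign. Other filters, either block, no trend, marked spots kept, probe averaging and the permutation test leave this probe at -0.62 by design. Leaving out 1 array cannot turn the sign where the groups do not overlap. Nt5e is also made by lymphocytes, mural cells and choroid plexus. The lymphocyte markers summed to 6.81 to 15.0 in control and 7.20 to 12.3 in mPGC-1α samples, with 7 of 12 higher. The endothelial and mural markers summed to 18.1 to 23.7 and 13.7 to 30.1, with 5 of 7 tested higher. Their differences ran from -1.22 to 0.65, and without overlap 2 were higher and 1 lower in mPGC-1α samples. Tek and Rgs5 were not well above background on any array. The choroid plexus markers were lower in 4 of 4 tested, the largest differences being Kcne2 (-0.85) and Kl (-0.61), with sums of 75.3 to 113 in control and 73.9 to 108 in mPGC-1α samples. The part of these cells in the Nt5e value was not tested, and in such bulk samples fewer cells of a type cannot be told apart from less RNA per cell.

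Adora2a, the receptor for the adenosine that CD73 makes, is abundant in striatal neurons as well as in immune cells. It read -0.27, 0.48 and -0.10 in control and 0.71, 0.16 and 0.29 in mPGC-1α samples. The groups overlapped through control array 2, the second highest of the 6. The difference was 0.35 with a SE of 0.27 and a 95% confidence interval of -0.25 to 0.95 (limma adjusted p = 0.793). Without control array 2 it was 0.57 (limma adjusted p = 0.196). Of 7 tested striatal neuron markers 5 were higher, the largest differences being Tac1 (0.91) and Penk (0.75), whereas the sum of the list was 9.98 to 13.6 in control and 8.98 to 10.3 in mPGC-1α samples. Most of that sum was Ppp1r1b, singled out, like Itga2b above, after its values were seen, which read 3.40, 3.48 and 3.13 in control and 2.66, 2.99 and 3.09 in mPGC-1α samples. Without it the list summed to 1.25 to 2.36 in control and 1.71 to 2.64 in mPGC-1α samples. The part of striatal RNA in the Adora2a value was not tested.

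Neuron, astrocyte and oligodendrocyte markers mostly had higher values in the mPGC-1α samples, unlike the choroid plexus markers above. The neuron markers were higher in 10 of 10 tested, with a median difference of 0.91. The astrocyte markers were higher in 8 of 9 (median 0.97) and the oligodendrocyte markers in 9 of 10 (median 0.74). Of all tested genes 64.0% were higher, with a median of 0.11. The neuron markers summed to 41.8 to 67.6 in control and 67.0 to 76.9 in mPGC-1α samples, and the oligodendrocyte markers to 16.4 to 23.7 and 28.1 to 39.9. The astrocyte markers summed to 16.8 to 24.3 and 23.3 to 67.8, with overlap, the highest being mPGC-1α array 2. Rbfox3 (1.42) and Tubb3 (1.17) differed most among neuron markers, S100b (1.6) and Gja1 (1.21) among astrocyte markers, and Cldn11 (1.65) among oligodendrocyte markers. No marker on these 3 lists was called (limma adjusted p of at least 0.684 for those named). Monocyte and border macrophage markers were higher in 2 of 12 tested (median -0.19), with sums of 61.0 to 84.8 in control and 45.9 to 105 in mPGC-1α samples. Neutrophil markers were bright on all arrays, with sums of 192 to 272 in control and 147 to 306 in mPGC-1α samples, the lowest on mPGC-1α array 1, and 3 of 6 tested were higher (Mpo -0.61 and Camp -0.16 differed most). Microglia markers were higher in 5 of 11 tested, with a median of -0.03. Olfml3 differed most among them (-1.36, limma adjusted p = 0.713), with overlapping groups. Olfml3 read 4.29, 1.45 and 4.35 in control and 1.87, 1.74 and 2.39 in mPGC-1α samples, with control arrays 1 and 3 the 2 highest. Without control array 2 its difference was -2.32 (limma adjusted p = 0.0012), in a fit where 4.99% of all probes were called lower. The part of RNA from any of these cells in the members' values was not tested. The Cre driver locus Cx3cr1 read lower on one probe (difference -1.23, limma adjusted p = 0.684), without overlap. Without control array 2 this became -1.39 (limma adjusted p = 0.014), in the same fit with 4.99% of all probes called lower. The other Cx3cr1 probe differed by -0.33.

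**Figure D4:**
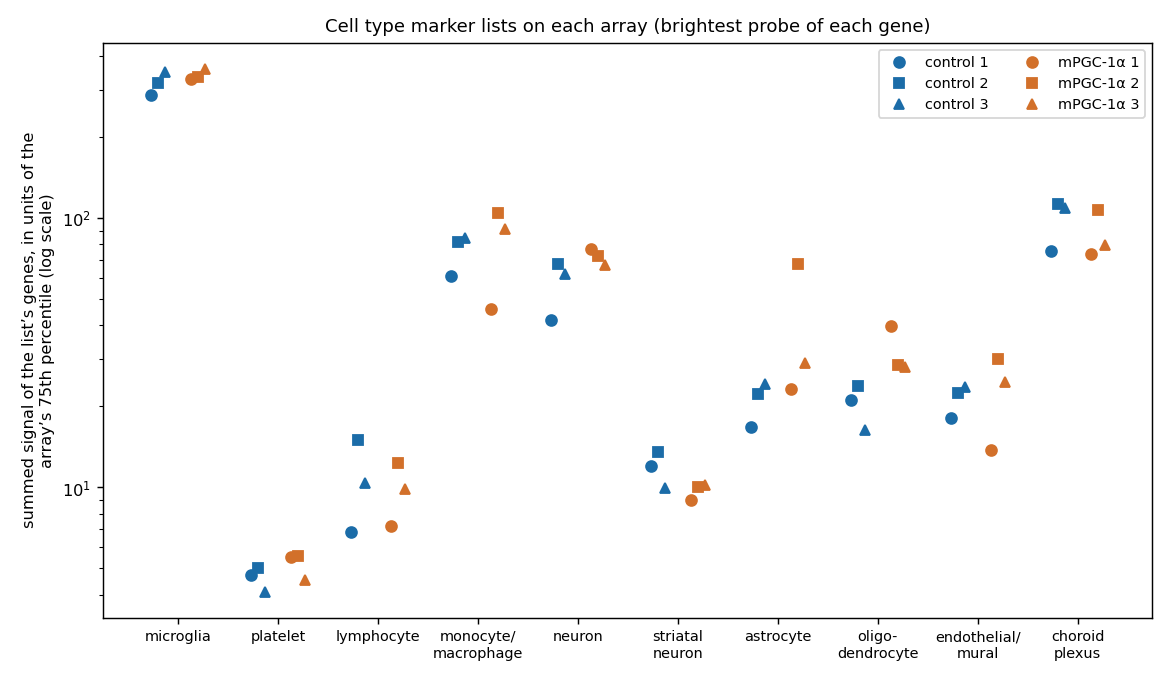
Summed signal of cell type marker lists on each array, in units of the 75th percentile of the array on a log axis, with blue for control and orange for mPGC-1α arrays and a symbol for each array number. Microglia markers stand at 288 to 360 on every array, platelet markers at 4.10 to 5.54, and oligodendrocyte markers are higher on each mPGC-1α array than on any control array.

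The rest of the purinergic system was read from a list of 32 genes, of which 28 were tested, and 0 passed the adjusted threshold, as among all genes (0%). Higher values in mPGC-1α samples were found for 19 and lower values for 9, with a median of 0.09, beside 0.11 over all genes. At an unadjusted p below 0.05 there were 2, beside 6.09% of all genes. P2ry2, a receptor for ATP and UTP that lies beside P2ry6, read 0.89, 0.27 and -0.24 in control and 1.41, 0.72 and 1.22 in mPGC-1α samples, a difference of 0.81 with a SE of 0.31 and overlapping groups (limma adjusted p = 0.685). Adora2b, the low-affinity adenosine receptor, read -1.62, -1.80 and -0.69 in control and -2.84, -2.16 and -2.00 in mPGC-1α samples, a difference of -0.96 with a SE of 0.36 and no overlap (limma adjusted p = 0.685). The 4 adenosine receptors thus differed in sign, with Adora2a, Adora1 (0.09) and Adora3 (0.33) higher and Adora2b lower on their brightest probes, none past the threshold.

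Of the genes for nucleotide release, Panx1, the pannexin channel for ATP, read -0.04, 0.33 and 0.20 in control and 0.41, 0.49 and 0.76 in mPGC-1α samples (difference 0.39, SE 0.21, limma adjusted p = 0.737). Slc17a9, the transporter that loads ATP into vesicles, read -1.17, -0.92 and -0.93 in control and -0.77, -0.80 and -0.60 in mPGC-1α samples (difference 0.28, SE 0.22, limma adjusted p = 0.796). Neither gene overlapped between the groups. P2rx6, a channel subunit, also had separate groups with a difference of -0.30 (control -2.68 ± 0.13, mPGC-1α -2.98 ± 0.10, SD, n = 3 each). Without overlap there were thus 4 of 24 genes measured on 6 arrays, beside 11.9% of 16191 genes. On dimmer probes, Adora1 (1.13), Entpd4 (-1.25) and Enpp1 (0.34) also had separate groups, while the brightest probes of these genes differed by 0.09, 0.01 and -0.18. Dimmer probes of P2rx2 (control mean -5.92, mPGC-1α mean -6.50) and P2rx5 (-4.95 and -6.15) were lower without overlap. They were not tested, since neither group was well above background throughout, and the brightest probes differed by 0.24 and 0.25. No tested probe of these genes passed the adjusted threshold without control array 2 or with the array number as a block. P2ry4 and Enpp3 were not well above background on any array.

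**Figure D5:**
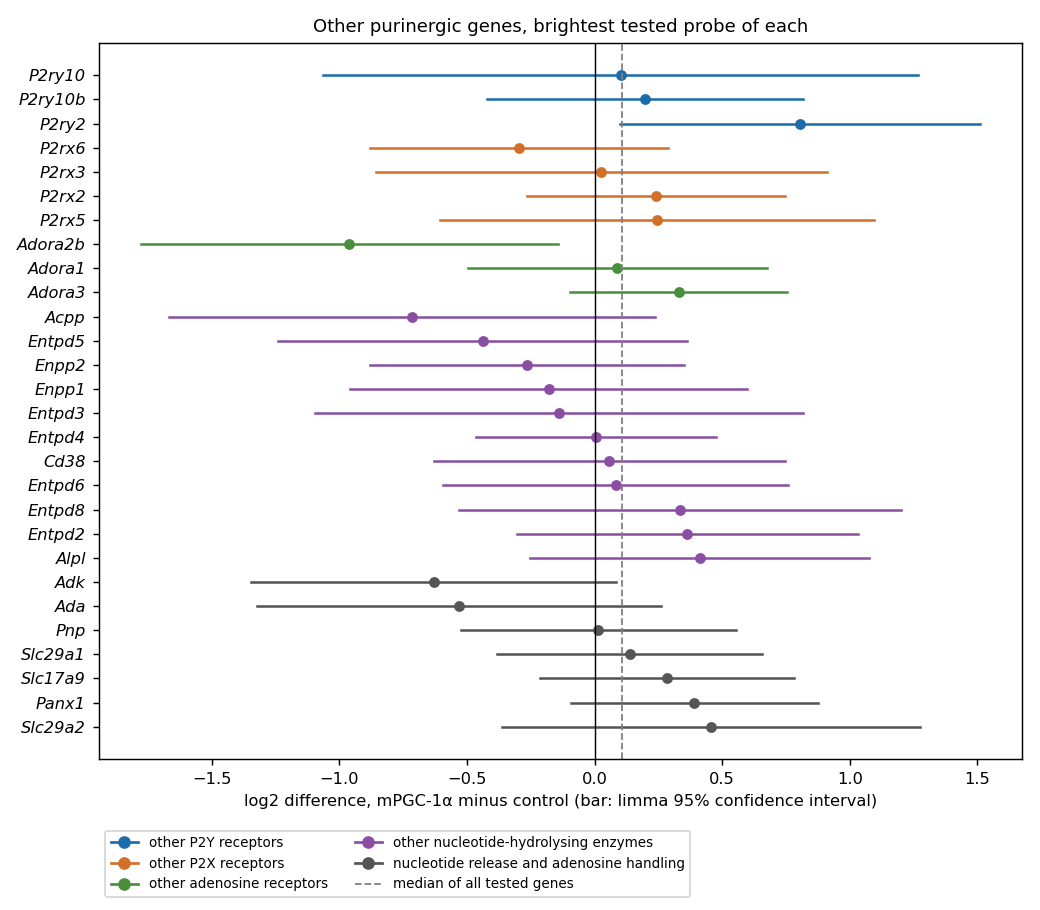
Difference between mPGC-1α and control samples for the brightest tested probe of 28 other purinergic genes on the log2 scale, with limma 95% confidence intervals, coloured by kind of gene. The dashed line is the median of all tested genes (0.11), and the intervals of P2ry2 and Adora2b are the 2 that leave out 0.

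Among the genes next to members, Camkk1, beside P2rx1, read -1.21, -1.30 and -0.85 in control and -0.29, -0.27 and -0.62 in mPGC-1α samples, a difference of 0.73 with a SE of 0.24 and no overlap (limma adjusted p = 0.684). Over the 8 neighbours in the list, 5 were higher and 3 lower, with a median of 0.25. The P2rx1 probes beside it differed by -0.15 and 0.15.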

How the data were processed

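Total RNA of P2RY12-selected microglia had been amplified, labelled and hybridised to single-colour mouse arrays, 1 per sample. The deposited files hold linear intensity per spot from Agilent Feature Extraction 11.5.1.1, background-subtracted by the authors' software and not scaled between arrays. The labels name Cy3 in one field and Cy5 in another, and the files hold 1 green channel. The series matrix, made by the authors in GeneSpring, gives normalized log2 values (r of at least 0.999 with the same array).

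Log2 intensity minus the 75th percentile of each array over all 56605 non-control probes was computed, with spots of a probe averaged. Spots marked as outliers were left out of tests but kept in the percentile, and values of marked spots are shown. Probes were tested where all unmarked arrays of a group (at least 2) were well above background and each group had 2 values (40745 probes, of which 3750 had a missing value). Probes were named by accession through a RefSeq table (33767, 59.7%). Groups were compared with limma 3.58.1 in R 4.3.3 (intensity trend, Benjamini-Hochberg over all tested probes, two-sided) and an exact two-sided permutation test of the 6 values. The brightest probe stands for a gene in list counts, and all member probes are named. Other purinergic and neighbouring genes are named at an unadjusted p below 0.05 or without overlap, and up to 2 markers per list described (1 is not reported here). Members and lists were chosen with earlier results of these data known.

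Arrays with the same number deviated together (r of 0.247, 0.224 and 0.171, others -0.337 to 0.035), though no label says what the numbers stand for. This pairing was read from these same arrays, and the main fit did not use it. It entered only as an alternative block and in the differences given between arrays of the same number. Alternatives were quantile and normexp normalization, the series matrix, other filters, slide or number as a block, no trend, centring on microglia markers, the mean of probes and leaving out each array. The fit was checked on simulated data with known changes. Its estimates were near the true size, but few changes of 1 log2 unit were called, and some of 3 log2 units were missed. A count of 0 calls therefore does not exclude changes of 1 log2 unit, nor all larger ones. The simulated noise was drawn for each value on its own, without the slides, shared array numbers or probe shifts of the real arrays.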

Additional observations from a re-analysis of the deposited data

How the results depend on the processing

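Over 205 recomputed values for the brightest probes of the 10 genes, 187 kept their direction and side of the threshold. Of the others, 17 changed sign and 1 changed its call. With another filter, no trend, slide as a block or the permutation test, no difference could change. The replicate block and keeping marked spots could change only P2ry6, and averaging probes only the 5 genes with several probes. The 187 thus overstate how stable the signs were. For Nt5e, Entpd1, P2rx4, P2rx7 and Adora2a these values kept their sign in every alternative and leave-out run. This does not cover the other probes. The second P2rx4 probe (-0.07) and the dimmest P2rx7 probe (-0.32) had the opposite sign to the brightest probe. P2ry12 was -0.157 after quantile normalization, -0.146 with arrays centred on microglia markers, -0.157 with the replicate block after quantile normalization, and -0.134 to 0.093 when 1 array was left out. P2ry13 was -0.024 after quantile normalization, -0.052 with normexp, -0.022 in the series matrix, -0.021 with arrays centred on microglia markers and -0.024 with the replicate block after quantile normalization. P2ry6 was 0.103 with the replicate block, 0.127 with the 75th percentile over unmarked spots only, and 0.039 and 0.356 with the replicate block after quantile normalization or that percentile. With the probes of a gene averaged, P2ry14 was -0.142 and P2rx1 0.00023. The alternative percentile and its combinations with the block were added after seeing the data. All these values are log2 differences well inside their intervals, and the cause of the sign changes was not tested.

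Over the whole table the replicate block, which pairs arrays by number, called 1 probe in place of 0 and no member. With the block and the percentile over unmarked spots it called 1722, where that percentile leaves out up to 48.3% of the brightest 10% of an array. Leaving out 1 array gave 0 to 2102 calls in the table and 0 to 1 among members, both highest without control array 2, where Entpd1 was called at -0.93 (limma adjusted p = 0.035). Centring on microglia markers moved the median of all tested probes from 0.08 to -0.07. Outlier marks removed arrays from the fits of P2ry12, P2ry6 and the second Entpd1 probe, and the largest SE among member probes was 0.36, that of the dimmest P2rx7 probe.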
